A study of Mus musculus with 568 samples.

Results

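Imprinted genes, of which 1 parental copy is used and the other is silent, were examined in cultured female germ cells of the mouse as a list of 40. The genes were chosen by name as textbook imprinted genes. For the bulk data the rule also asked for a mean above 10 over the 4 groups. 14 are expressed from the maternal copy, 25 from the paternal copy, and *Gnas* from both by transcript. The bulk RNA-seq table lists 16335 genes and holds 32 of the 40, and the single-cell table lists 15718 genes and also holds 32, with 30 in both tables and 6 in neither.

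The study followed an X-reporter line of female embryonic stem cells (ESCs) from the hybrid of 129S1/SvImJ and CAST/EiJ through epiblast-like cells (EpiLCs) to primordial germ cell-like cells (PGCLCs), the in vitro counterpart of early germ cells. Bulk RNA-seq comprised 16 libraries, 4 for each of these stages, with PGCLCs split by sorting into XGFP+ and XGFP− cells. Single cells came from reconstituted ovaries (rOvaries), in which PGCLCs were cultured for 6 days with somatic cells of mouse embryonic gonads and mesonephros. All groups carried the same alleles: a *Tsix* truncation that directs X inactivation to the 129 X, a GFP reporter on that X, a tdTomato reporter on the CAST X, and doxycycline-inducible *Prdm1*, *Prdm14* and *Tfap2c* transgenes with rtTA in Rosa26.

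ESCs were grown in serum/LIF with a final day in 2i/LIF and were not sorted. EpiLCs were taken after 48 h in bFGF and activin A, a split and a further 48 h, and were not sorted. PGCLCs were taken at day 5 with doxycycline at 1.5 µg/ml and were sorted as SSEA1+ CD61+ XTomato+ cells. XGFP+ PGCLCs still expressed the GFP of the 129 X, and XGFP− PGCLCs had silenced it. As the transcription factors were driven by transgenes, and as the line is a small number of clones, these cells are a model of germ cell induction. The 4 libraries of a group are numbered 1 to 4 with no clone given, while the study's methods describe different clones with technical replicates of each. All 4 were entered as replicates, so that n, SD and FDR count technical repeats, the spread between clones may be understated, and the FDR values are then too small.

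Many imprinted genes lie in clusters, and most, though not all, are controlled by a region whose DNA methylation was set in the egg or in the sperm. The methylated copy is protected from the erasure that follows fertilization by the zinc finger protein ZFP57 with TRIM28, and is copied at each division by DNMT1 with UHRF1. In primordial germ cells this methylation is removed, so that new marks can be set according to the sex of the embryo. A gene whose silent copy is released can rise, and a gene that depends on a methylated control region can fall. The levels given here are totals of both copies, since the allelic tables hold 1972 genes of 2 chromosomes in bulk and 219 genes in single cells and include 0 of the 40 genes. The parental copy in use was not analysed here.

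The sequences below are the promoters of 4 genes that differed between XGFP+ and XGFP− PGCLCs, and the microRNA of *H19*. Promoter windows of 300 bases, 250 before to 50 after the start, were read from RefSeq tables of build GRCm38.p6 and are written 5′ to 3′ on the strand of the gene. Capitals mark TGCCGC or its reverse complement GCGGCA, the letters that ZFP57 is known to bind when methylated.
Peg3, chr7:6730370-6730669, minus strand: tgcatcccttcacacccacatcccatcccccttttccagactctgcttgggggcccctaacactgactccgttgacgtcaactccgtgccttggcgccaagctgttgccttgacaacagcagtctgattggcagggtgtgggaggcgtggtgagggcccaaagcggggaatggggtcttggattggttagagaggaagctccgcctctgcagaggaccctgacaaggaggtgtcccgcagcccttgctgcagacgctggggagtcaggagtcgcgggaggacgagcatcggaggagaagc
Meg3, chr12:109540746-109541045, plus strand: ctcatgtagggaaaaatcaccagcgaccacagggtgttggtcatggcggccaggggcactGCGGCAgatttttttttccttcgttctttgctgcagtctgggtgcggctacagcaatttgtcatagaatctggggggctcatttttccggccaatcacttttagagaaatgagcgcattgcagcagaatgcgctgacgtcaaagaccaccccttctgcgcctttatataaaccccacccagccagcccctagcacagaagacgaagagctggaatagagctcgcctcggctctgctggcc
Grb10, chr11:12037371-12037670, minus strand: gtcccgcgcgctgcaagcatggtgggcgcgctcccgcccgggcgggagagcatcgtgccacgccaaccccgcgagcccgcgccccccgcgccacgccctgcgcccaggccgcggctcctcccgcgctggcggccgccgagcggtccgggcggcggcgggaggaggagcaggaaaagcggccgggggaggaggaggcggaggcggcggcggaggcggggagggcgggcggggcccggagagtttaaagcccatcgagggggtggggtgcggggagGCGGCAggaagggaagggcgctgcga
Magel2, chr7:62376729-62377028, plus strand: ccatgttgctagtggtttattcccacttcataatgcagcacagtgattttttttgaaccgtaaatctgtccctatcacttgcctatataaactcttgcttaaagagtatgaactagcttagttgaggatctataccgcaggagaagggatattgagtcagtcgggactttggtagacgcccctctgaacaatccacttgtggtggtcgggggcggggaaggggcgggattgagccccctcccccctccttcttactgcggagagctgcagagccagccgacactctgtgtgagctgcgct
The windows shown of *Meg3* and *Grb10* hold 1 match each, those of *Peg3* and *Magel2* hold 0. *Meg3* and *Grb10* each have a further window in the table that is not shown, with 0 matches and with 1 and 9 CpGs. The *Grb10* window shown is the richest in CpG of the 4, with 45 CpGs against 13, 13 and 10 in the windows of *Peg3*, *Meg3* and *Magel2*. The *Peg3* window shares 263 of its 300 bases with that of *Usp29*, which is read from the opposite strand.

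32 of the 40 genes have at least 1 window among those counted here, 49 windows in all. No window of *Impact* was counted, and whether the table holds one was not tested. A match on either strand was found in 14 of the 49 windows (28.6%) and in 13 of the 32 genes (40.6%). Over the whole table a match is held by 11.6% of 32851 windows and by 13.1% of 27025 genes. 4 of 11 maternally expressed and 9 of 20 paternally expressed genes with a counted window hold a match. A match is a run of letters and not a bound site, and the windows were not matched for base composition.

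*H19* is a long non-coding RNA and the host of miR-675, whose hairpin lies in an exon of *H19* (chr7:142577112-142577133 for the 5p strand, minus strand, GRCm38.p6). The mature sequences from RefSeq are given with the seed, bases 2 to 8, in capitals.
mmu-miR-675-5p: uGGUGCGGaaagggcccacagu
mmu-miR-675-3p: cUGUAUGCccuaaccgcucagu
The seeds of the 5p and 3p strands differ. Small RNAs were not measured here, so the level of *H19* says nothing direct of the microRNA.

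The bulk libraries held between 29.78 M and 46.53 M recovered gene reads. Libraries of 1 group differed by more than counting noise, with a chi-square per gene of 8.532 to 43.07 over pairs and a Spearman correlation of 0.99049 to 0.99698. The 32 imprinted genes took 0.153% of the reads of ESCs and 0.284% of those of EpiLCs, and among PGCLCs 0.170% (XGFP+) and 0.290% (XGFP−). The 9 germ cell markers summed to 38350 to 45010 normalized counts in XGFP+ PGCLCs and to 39250 to 44810 in XGFP− PGCLCs, against 2412 to 3569 in EpiLCs. In ESCs the germ cell markers summed to 14110 to 15870. Their list includes *Prdm1*, *Prdm14* and *Tfap2c*, which the transgenes drive, so part of the PGCLC sum may be transgene RNA. In XGFP− PGCLCs against EpiLCs 7 of the 9 were higher and 1 lower (29.9% and 31.9% of all genes tested). The lower gene was *Ddx4*, at 223.6 against 532.1. *Dazl* averaged 347.6 in XGFP− PGCLCs, 4792 in XGFP+ PGCLCs and 578.7 in ESCs. The 5 naive pluripotency markers summed to 126100 to 142200 in ESCs and the 5 formative epiblast markers to 53720 to 62300 in EpiLCs.

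Markers of other states and cell types differed between the PGCLC groups. The naive pluripotency markers summed to 43110 to 49800 in XGFP+ and 24040 to 30620 in XGFP− PGCLCs, without overlap. The formative epiblast markers summed to 1483 to 1849 and 934.7 to 1053. Of these 5, *Dnmt3b* was called lower in XGFP− PGCLCs (1173 in XGFP+ and 203.0 in XGFP− on average). *Fgf5* was called higher (164.6 and 518.1), and 3 were not called. Gonadal somatic markers (7 of 12 in the table) summed to 123.5 to 265.3 in XGFP+ and 78.23 to 100.5 in XGFP− PGCLCs, and mesoderm markers (4 of 7) to 46.31 to 59.35 and 38.13 to 45.72. Extraembryonic markers (5 of 9) summed to 850 to 907.3 in XGFP+ and 1180 to 1675 in XGFP− PGCLCs, and endothelial and blood markers (3 of 8) to 98.88 to 120.9 and 232.9 to 331.8. Genes of a list did not all move with their sum. Called higher and lower in XGFP− PGCLCs were 1 and 3 of 7 gonadal somatic and 0 and 1 of 4 mesoderm genes. Of extraembryonic genes 2 and 1 of 5 were, and of endothelial and blood genes 1 and 0 of 3. Over all genes tested the shares were 11.3% and 12.5%. The part of these markers in the results below was not tested. In bulk samples, fewer cells that use a gene and less RNA of it per cell cannot be told apart.

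Levels per kilobase of exon put different imprinted genes on top at each stage. In ESCs the highest were *Impact*, a regulator of translation, with 2479 normalized counts per kb, and *Slc38a4*, an amino acid transporter, with 1787. In EpiLCs *Peg10*, a gene derived from a retrotransposon, came first with 3476 per kb and *Impact* second with 2588. In XGFP+ PGCLCs *Igf2r*, the receptor that clears IGF2, and *Impact* stood at 1785 and 1711 per kb. In XGFP− PGCLCs *H19* led with 5324 per kb, followed by *Peg3*, a zinc finger gene, with 3008. *H19* thus moved from rank 20 of 32 in ESCs to rank 15 in EpiLCs, and stood at rank 5 for XGFP+ and rank 1 for XGFP− PGCLCs. Exon lengths are those of GENCODE vM21 and may differ from the annotation behind the counts.

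The summed level of the 11 maternally expressed genes in the table was 19990 ± 590 for ESCs, 30380 ± 1830 for EpiLCs, 26490 ± 728 for the XGFP+ and 39500 ± 1080 for the XGFP− group of PGCLCs (normalized counts, SD, n = 4). That of the 20 paternally expressed genes was 36330 ± 2900, 70040 ± 3930, 36420 ± 995 and 69050 ± 1920. The libraries of XGFP− PGCLCs lay above those of XGFP+ PGCLCs for both sums without overlap. These sums rest on few genes: *Igf2r* made up 62.7% of the maternal sum in XGFP+ PGCLCs, and *Peg3* 58.1% of the paternal sum in XGFP− PGCLCs. Most of either difference between the PGCLC groups lay in 1 gene. *H19* made up 11459 of the maternal difference of 13014 normalized counts, and *Peg3* 30468 of the paternal difference of 32624. Without these genes, left out after seeing the data, the maternal sums were 24850 (XGFP+) and 26405 (XGFP−), the paternal sums 26808 and 28964.

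**Figure D1:**
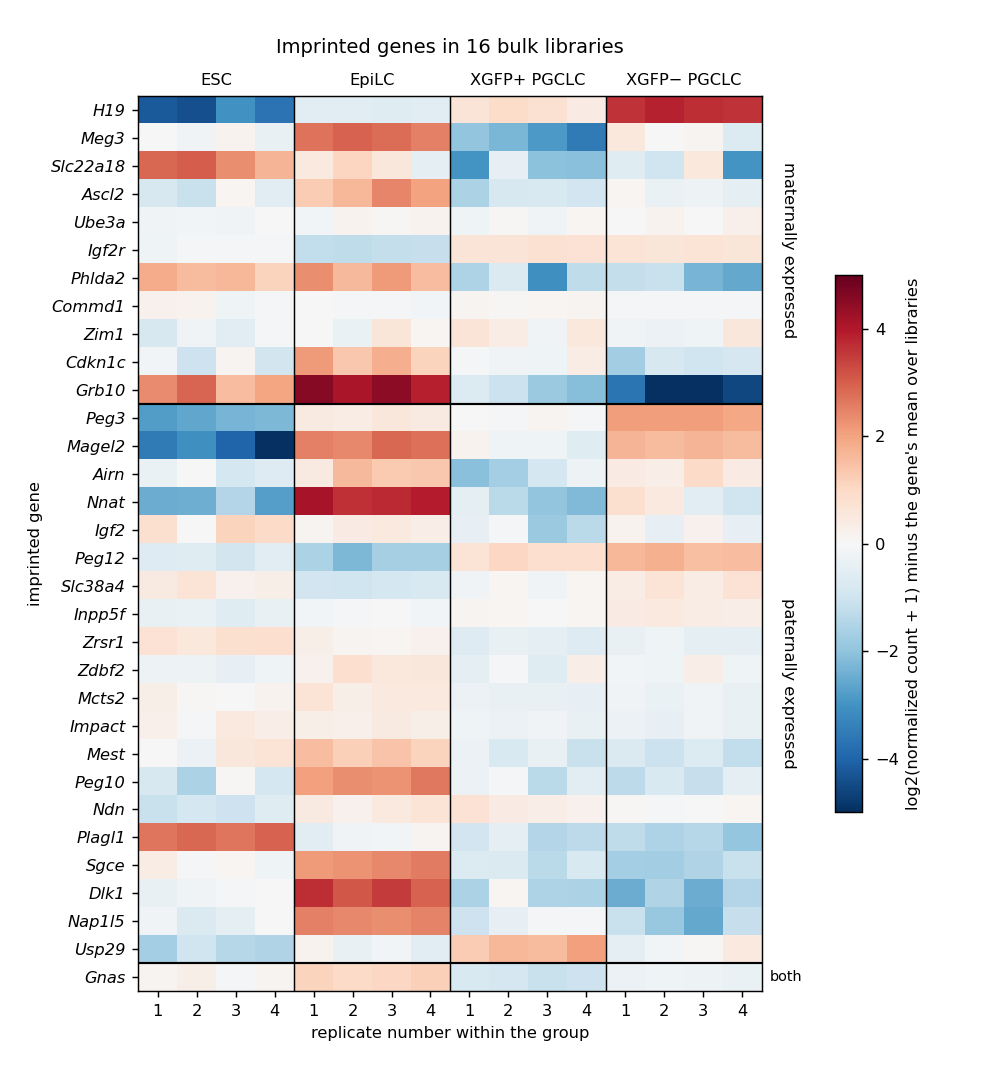
Heat map of the 32 imprinted genes in the bulk table (rows, by parental class and then by the difference between PGCLC groups) over the 16 libraries (columns, replicates 1 to 4 of each group). Colour is log2(normalized count + 1) minus the mean of that gene over all libraries, red above and blue below. EpiLCs stand out for *Grb10*, *Nnat* and *Dlk1*, ESCs for *Plagl1*, XGFP− PGCLCs for *H19* and *Peg3*.

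Imprinted genes differed first between ESCs and EpiLCs, the step that addresses the exit from naive pluripotency. Of the 32 genes 19 were higher in EpiLCs, 5 lower and 8 not called at an FDR below 0.001 (limma over all genes tested). Of all 16281 genes tested 24.9% were higher and 22.9% lower. Markers of other cell types moved too: the mesoderm sum was 129.3 to 273.7 in ESCs, 663.8 to 3007 in the unsorted EpiLCs and at most 59.35 in PGCLCs, and the extraembryonic sum 2226 to 3074, 4315 to 9470 and at most 1675. Their part in the rise here and the lower levels in PGCLCs was not tested. Among maternally expressed genes 5 were higher and 1 lower of 11, among paternally expressed genes 13 and 4 of 20, and *Gnas* was higher. The median log2 fold change (log2FC) of the 32 was 1.02, against 0.00879 over all genes, on the scale of log2(normalized count + 1), which understates changes of low genes.

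The largest differences were of genes that ESCs hardly expressed. *Magel2*, a MAGE family gene of the Prader-Willi region, had normalized counts of 3.37, 4.94, 2.10 and 0 in the ESC libraries and 288.3, 262.1, 364.6 and 334.8 in the EpiLC libraries (log2FC 6.70 ± 0.37 SE, FDR = 1.2e-11). *Nnat*, which encodes the small membrane protein neuronatin, had 5.61, 5.93, 12.6 and 4.52 in ESCs and 641, 469.7, 489.8 and 568 in EpiLCs (log2FC 6.14 ± 0.4 SE, FDR = 1.55e-10). *Dlk1*, which encodes a Notch ligand-like protein, had 3.37, 3.95, 4.21 and 4.52 and 72.1, 47.5, 62.6 and 42.5 (log2FC 3.48 ± 0.41 SE, FDR = 4.26e-07). For each of these genes all EpiLC libraries lay far above all ESC libraries. *Dlk1* and *Nap1l5* exceed a mean of 10 in EpiLCs only, so they entered the test through the group where they are high.

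*H19* rose from 53.9, 46.4, 120.9 and 78.1 to 699, 699, 657 and 686 (log2FC 3.28 ± 0.2 SE, FDR = 3.98e-11), and *Peg10* from 2612, 1526, 4769 and 2516 to 19022, 23110.2, 22098 and 28470.3 (log2FC 3.12 ± 0.28 SE, FDR = 1.55e-08). *Peg3* (7.64-fold, FDR = 7.36e-15) and *Meg3*, the non-coding RNA of the *Dlk1* cluster (7.14-fold, FDR = 1.94e-08), rose as well. *Cdkn1c*, an inhibitor of the cell cycle, was 4.27-fold higher and *Grb10*, an adaptor that dampens insulin and IGF signalling, 4.16-fold higher (FDR = 0.000467). The call of *Grb10* was lost without any 1 of 6 of the 8 libraries compared (ESC replicates 1, 3 and 4, EpiLC replicates 1, 2 and 3). The 5 genes that fell were *Plagl1*, a zinc finger transcription factor (−2.98), *Slc38a4* (−1.31), *Igf2r* (−1.12), *Peg12* (−1.09) and *Zrsr1*, a splicing factor retrogene (−0.54, all log2FC). *Plagl1* had 1685, 1922, 1661 and 2002 in ESCs and 175.8, 231.4, 238.5 and 284.4 in EpiLCs, without overlap.

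Between EpiLCs and PGCLCs more of the imprinted genes were lower than higher. In XGFP+ PGCLCs 5 of 32 were higher than in EpiLCs, 20 lower and 7 not called, where 27.8% of all genes tested were higher and 29.5% lower. In XGFP− PGCLCs 6 were higher, 16 lower and 10 not called, with 29.9% and 31.9% over all genes. Both comparisons share the EpiLC libraries. By class, 2 maternally expressed genes were higher and 5 lower in either comparison, and 3 and 14 paternally expressed genes in XGFP+ against 4 and 10 in XGFP− PGCLCs. The median log2FC was −1.06 for XGFP+ and −0.70 for XGFP− PGCLCs, against −0.00417 and −0.0259 over all genes.

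*Grb10* fell the most in both. It had 3911, 2851, 3690.1 and 2442 normalized counts in the EpiLC libraries, 104.3, 77.6, 44.99 and 37.6 in XGFP+ against 12.1, 1.02, 2.89 and 6.18 in XGFP− PGCLCs (log2FC −5.68 ± 0.44 SE, FDR = 1.39e-09 for XGFP+, log2FC −9.25 ± 0.44 SE, FDR = 1.08e-12 for XGFP− PGCLCs against EpiLCs). *Dlk1* fell to 0.907, 5.01, 0.957 and 0.896 in XGFP+ against 0, 1.02, 0 and 1.03 in XGFP− PGCLCs (log2FC −4.45 and −5.30, FDR = 1.2e-08 and 8.14e-10), levels of at most a few reads. *Nnat* fell to 26.3, 13.8, 8.61 and 7.16 in XGFP+ against 63.3, 50.8, 24.04 and 17.5 in XGFP− PGCLCs (log2FC −5.34 and −3.93, FDR = 8.62e-10 and 4.85e-08). All PGCLC libraries lay below all EpiLC libraries for these 3 genes.

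*Phlda2*, a maternally expressed gene that restrains placental growth, went from 120.4, 74.2, 105.3 and 70.1 in EpiLCs to 7.25, 13.8, 1.91 and 8.96 in XGFP+ PGCLCs (log2FC −3.56 ± 0.42 SE, FDR = 4.1e-07), and was lower in XGFP− PGCLCs too (log2FC −3.71). *Nap1l5*, a retrogene inside *Herc3*, went from 64.2, 59.3, 56.6 and 63.2 to 4.33, 2.03, 0.962 and 4.12 in XGFP− PGCLCs (log2FC −4.11 ± 0.33 SE, FDR = 1.51e-09), and was lower in XGFP+ PGCLCs too (log2FC −2.85). The neighbours *Peg10* and *Sgce*, which share a promoter region, both fell, by 2.88 and 3.22 on the log2 scale in XGFP+ and by 3.25 and 3.86 in XGFP− PGCLCs. *Ascl2*, *Cdkn1c*, *Mest*, *Gnas*, *Meg3*, *Plagl1*, *Impact*, *Mcts2* and *Zrsr1* were also called lower in both groups. *Plagl1* in XGFP+ PGCLCs was called (FDR = 0.000554) although its libraries overlapped those of EpiLCs, as was *Zdbf2* (FDR = 0.000668). Both calls were lost without any 1 of several libraries, 6 for *Plagl1* and 7 for *Zdbf2*.

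A small group went up from EpiLCs. *H19*, *Igf2r*, *Peg12* and *Slc38a4* were higher in both PGCLC groups. *H19* was 2.37-fold higher in XGFP+ and 19.1-fold higher in XGFP− PGCLCs than in EpiLCs (FDR = 1.39e-05 and 6.26e-13). *Igf2r* went from 4339.8, 4236, 4477 and 4579 in EpiLCs to 16060.3, 15928, 17516 and 16965 in XGFP+ against 16394, 15509, 16491 and 15657 in XGFP− PGCLCs, with no overlap to EpiLCs. *Usp29*, a ubiquitin protease gene, was called higher in XGFP+ PGCLCs (log2FC 1.87 ± 0.22 SE, FDR = 2.98e-07) and not called in XGFP− PGCLCs, and *Inpp5f* the reverse. *Peg3* was called lower in XGFP+ PGCLCs (log2FC −0.46, FDR = 0.000189, lost without EpiLC replicate 3) and higher in XGFP− PGCLCs (log2FC 1.60, FDR = 1.28e-11).

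Compared with ESCs, from which they derive, XGFP+ PGCLCs had 8 of the 32 genes higher, 13 lower and 11 not called, where 25% of all genes tested were higher and 24.9% lower. *H19* was the largest increase, with 53.9, 46.4, 120.9 and 78.1 in ESCs and 1587, 1925, 1696 and 1342 in XGFP+ PGCLCs (log2FC 4.52 ± 0.2 SE, FDR = 6.56e-13). *Magel2* was higher (log2FC 3.86, FDR = 3.09e-08), as were *Usp29* (3.05), *Peg3* (2.48) and *Peg12* (1.54). *Slc22a18*, a transporter gene of the *Kcnq1* cluster, had 58.4, 65.2, 38.9 and 24.9 in ESCs and 0, 5.01, 0.957 and 0.896 in XGFP+ PGCLCs (log2FC −4.37 ± 0.63 SE, FDR = 6.18e-06). This gene, too, entered the test through the group where it is high. Its mean over all libraries was 15.9, made up mostly by ESCs (46.8), while EpiLCs averaged 10.5 and neither PGCLC group exceeded 4.49. *Plagl1* had 1685, 1922, 1661 and 2002 and 135.1, 187.7, 93.8 and 103.9 (log2FC −3.84 ± 0.19 SE, FDR = 5.25e-12), and *Grb10* 852, 1271, 479 and 646 and 104.3, 77.6, 44.99 and 37.6 (log2FC −3.62 ± 0.44 SE, FDR = 8.02e-07). The libraries of the groups did not overlap for any of these genes.

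The comparison of XGFP− with XGFP+ PGCLCs addresses what differs between germ cells that have silenced the 129 X and those that have not. Of the 32 imprinted genes 9 were higher in XGFP− PGCLCs (*H19*, *Meg3*, *Peg3*, *Magel2*, *Airn*, *Peg12*, *Gnas*, *Slc38a4* and *Inpp5f*), 2 were lower (*Grb10* and *Usp29*) and 21 were not called. Of all 16281 genes tested 11.3% were higher and 12.5% lower. Maternally expressed genes gave 2 higher and 1 lower of 11, paternally expressed genes 6 and 1 of 20, and *Gnas* was higher. The calls thus lay in both parental classes. The median log2FC was 0.115 over the 32 genes, 0.0134 over all genes, and the median absolute log2FC was 0.651, against 0.288 over all genes.

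**Figure D2:**
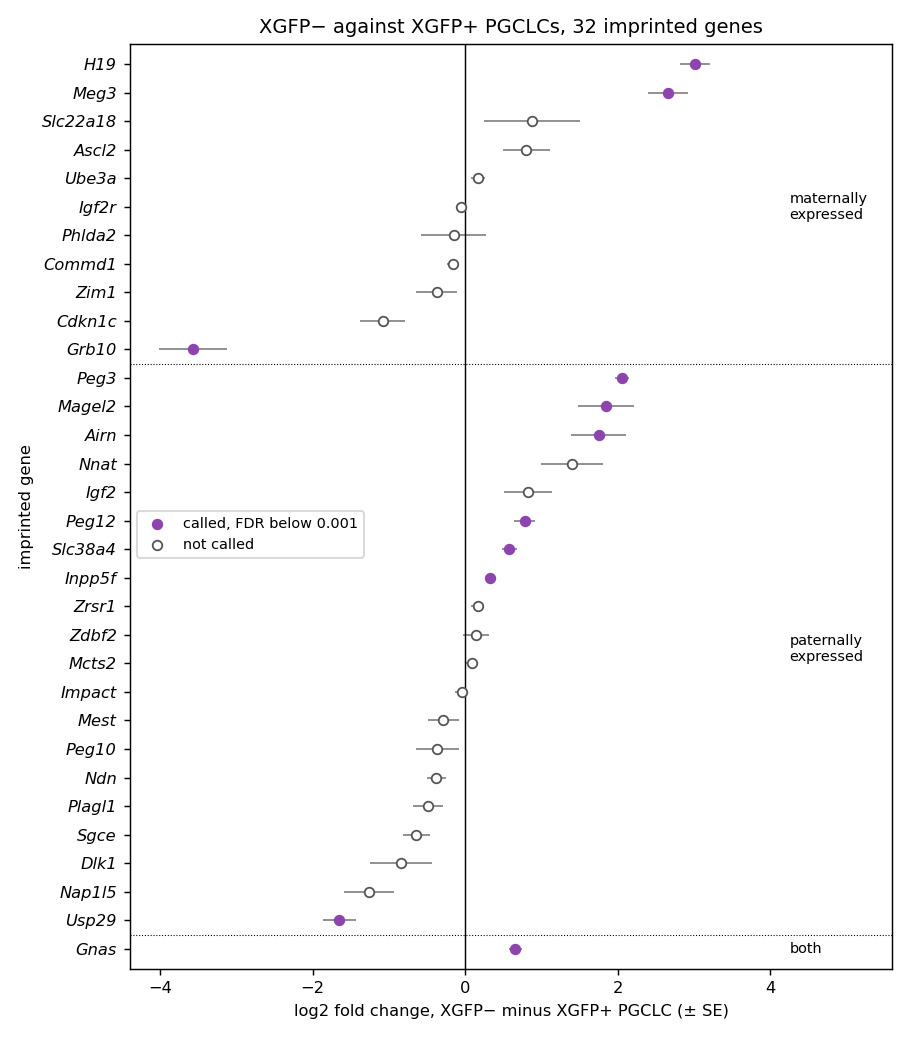
Difference between XGFP− and XGFP+ PGCLCs for each of the 32 imprinted genes (log2 fold change on the horizontal axis, ± SE from limma, 4 libraries a group), by parental class. Filled points passed an FDR below 0.001 and open points did not. *H19* and *Meg3* lie furthest to the right with log2FC of 3.01 and 2.66, *Grb10* furthest to the left with −3.57.

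*H19* (chr7:142575529-142578143, minus strand, mm10), a non-coding RNA gene next to *Igf2*, had normalized counts of 1587, 1925, 1696 and 1342 in XGFP+ against 12417, 14693, 12842 and 12432 in XGFP− PGCLCs. Every XGFP− library lay several times above every XGFP+ library (8.04-fold, log2FC 3.01 ± 0.2 SE, FDR = 1.53e-09). From ESCs (74.8 on average) over EpiLCs (685) and XGFP+ (1637 ± 242.3, SD, n = 4) to XGFP− PGCLCs (13096 ± 1082) neighbouring groups did not overlap. *Igf2*, the paternally expressed growth factor gene of the same cluster, had 56.2, 70.1, 20.1 and 28.7 in XGFP+ against 85.8, 55.9, 86.6 and 56.7 in XGFP− PGCLCs, overlapping ranges, and was not called (log2FC 0.82 ± 0.32 SE, FDR = 0.0409).

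*Meg3* (chr12:109541001-109571726, plus strand) had 511, 421, 278.5 and 176.4 in XGFP+ against 2959, 2039, 2211 and 1277 in XGFP− PGCLCs (6.32-fold, log2FC 2.66 ± 0.26 SE, FDR = 2.09e-07). Its XGFP− level overlapped that of ESCs, 2027, 1817, 2317 and 1558, and stayed below the EpiLC level of 13216, 15694, 14266 and 11699. *Dlk1*, the paternally expressed gene of that cluster, was at or near 0 reads in both PGCLC groups (FDR = 0.0961). *Rtl1*, *Rian* and *Mirg* of the cluster are not in the bulk table.

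*Peg3* (chr7:6703892-6730431, minus strand) had 9780.4, 9092, 10668 and 8928 in XGFP+ against 40915, 40732, 41665 and 37029 in XGFP− PGCLCs, and had the lowest FDR of the list (4.17-fold, log2FC 2.06 ± 0.092 SE, FDR = 1.41e-11). *Usp29* (chr7:6730578-6967219, plus strand), whose promoter window overlaps that of *Peg3*, went the other way, with 302.9, 401, 376.2 and 513 in XGFP+ against 89.3, 113.8, 129.8 and 177.3 in XGFP− PGCLCs (log2FC −1.65 ± 0.22 SE, FDR = 5.78e-06). For *Usp29* all XGFP− libraries lay below all XGFP+ libraries, and their range overlapped that of EpiLCs, 140.2, 96.9, 114.3 and 82.9. *Zim1*, the maternally expressed zinc finger gene of this cluster, had 36.5 and 28.2 on average and was not called (FDR = 0.259). Per kilobase of exon *Peg3* stood at 3008 and *Usp29* at 7.05 in XGFP− PGCLCs.

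*Magel2* (chr7:62377010-62381640, plus strand) had 56.2, 42.6, 42.1 and 32.2 in XGFP+ against 162.9, 147.3, 162.5 and 147.4 in XGFP− PGCLCs, with no overlap (log2FC 1.84 ± 0.37 SE, FDR = 0.000456). The call was lost (FDR = 0.00123 to 0.00379) without any 1 of 7 of the 8 PGCLC libraries and with a pseudocount of 0.5, and its log2FC lay between 1.71 and 1.87 in these settings. *Peg12*, from the same region, had 310.1, 402, 348.4 and 343.9 and 621, 662, 550.1 and 572 (log2FC 0.78 ± 0.14 SE, FDR = 0.000179), a call lost without XGFP+ replicate 1 or XGFP− replicate 2. *Ndn*, a further MAGE family gene there, had 656, 534, 499.7 and 471 and 423, 383.0, 411 and 429.8, lower values in each XGFP− library, but was not called (log2FC −0.38 ± 0.12 SE, FDR = 0.0158). *Ube3a*, a ubiquitin ligase gene of the region, was not called (FDR = 0.123). Of the listed 40 genes, 4 of this region are in the bulk table, and 2 of them were called higher. *Atp10a*, next to *Ube3a*, is not among the 40 and is given under other observations.

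*Airn* (chr17:12741311-12860136, plus strand), a non-coding RNA that runs antisense to *Igf2r*, had 3.63, 5.01, 9.57 and 15.2 in XGFP+ against 25.1, 23.4, 36.5 and 24.7 in XGFP− PGCLCs, low counts without overlap (log2FC 1.75 ± 0.36 SE, FDR = 0.000576). The call was lost (FDR = 0.00137 to 0.0029) in edgeR, in the compared groups alone and without any 1 of 6 of the 8 PGCLC libraries. *Igf2r*, with 16617 and 16013 on average, differed by a log2FC of −0.05 ± 0.048 (SE, FDR = 0.388). As the strand setting of the counting is not given in the sources used here, reads of *Airn* and *Igf2r* may have been shared where they overlap.

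*Grb10* (chr11:11930508-12038683, minus strand) had 104.3, 77.6, 44.99 and 37.6 in XGFP+ against 12.1, 1.02, 2.89 and 6.18 in XGFP− PGCLCs, so that the XGFP− libraries lay between 1.02 and 12.1 normalized counts (log2FC −3.57 ± 0.44 SE, FDR = 3.21e-06). Its level in XGFP+ PGCLCs was already below every ESC library (852, 1271, 479 and 646). *Cdkn1c* had 38.1, 35.05, 34.5 and 51.9 and 11.3, 22.4, 19.2 and 21.6, without overlap, and missed the threshold (log2FC −1.08 ± 0.3 SE, FDR = 0.00565). *Phlda2* had 7.97 and 6.66 and *Slc22a18* 1.71 and 4.49 on average, with overlapping libraries and no call.

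The smaller differences that were called were of *Gnas*, which encodes the stimulatory G protein subunit (1.58-fold higher, FDR = 2.99e-06), *Slc38a4* (1.49-fold, FDR = 0.000125) and *Inpp5f*, a phosphatase gene (1.25-fold, FDR = 0.000408). The call of *Inpp5f* was lost without any 1 of 7 of the 8 PGCLC libraries, all but XGFP− replicate 4, and with quantile normalization. *Gnas* had 1308, 1212, 1023 and 1073 in XGFP+ against 1804, 1874, 1844 and 1737 in XGFP− PGCLCs, in no case overlapping. *Nnat* had 26.3, 13.8, 8.61 and 7.16 and 63.3, 50.8, 24.04 and 17.5, which overlap (log2FC 1.40, FDR = 0.00782), and *Nap1l5* 4.53, 7.51, 9.57 and 9.85 and 4.33, 2.03, 0.962 and 4.12 (log2FC −1.26, FDR = 0.00398). *Impact*, *Mcts2*, *Mest*, *Peg10*, *Zdbf2*, *Zrsr1*, *Ube3a* and *Commd1* had log2FC between −0.36 and 0.17 and were not called. *Ube3a*, *Commd1* and *Zim1* were called in none of the 5 bulk comparisons.

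**Figure D3:**
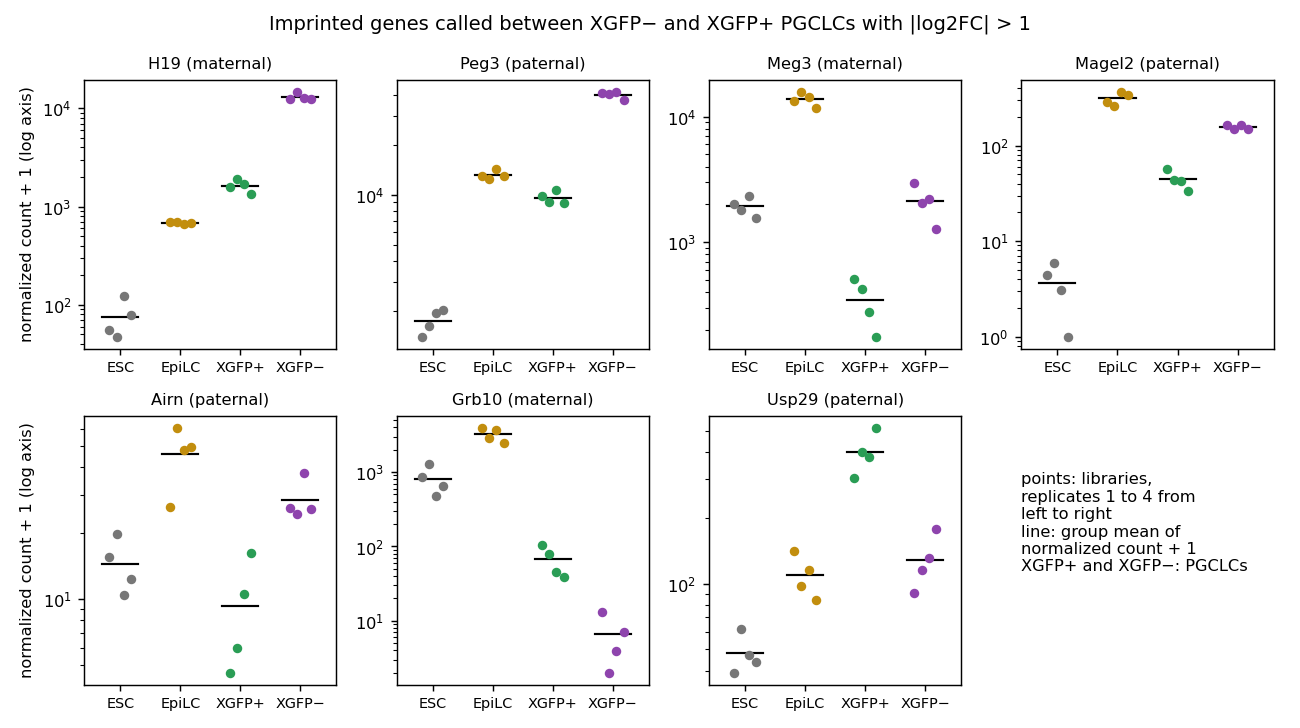
Normalized count + 1 (log axis) in each bulk library for the 7 imprinted genes that differed between XGFP− and XGFP+ PGCLCs with an absolute log2FC above 1, with points for libraries and lines for group means. *H19* is lowest in ESCs and highest in XGFP− PGCLCs, where it reaches 14693, and *Grb10* is highest in EpiLCs and lowest in XGFP− PGCLCs. The vertical axes differ between panels.

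The genes that keep or remove imprint methylation were described from a list of 15. Between XGFP− and XGFP+ PGCLCs 1 of the 15 was higher, 6 were lower and 8 were not called, where 11.3% of all genes tested were higher and 12.5% lower. *Zfp57* (chr17:37001163-37010635, plus strand) had 2415, 2525, 1471 and 1603 in XGFP+ against 63.3, 70.1, 75.98 and 86.6 in XGFP− PGCLCs (log2FC −4.71 ± 0.17 SE, FDR = 2.31e-12). It was highest in ESCs, at 21482, 20828, 22559.8 and 22980.1, and had 2032, 1451, 1490.3 and 1078 in EpiLCs. *Dnmt3l*, the cofactor of de novo methylation, had 3560.3, 2351, 2934 and 1935 and 326.7, 261.1, 283.7 and 224.7 (log2FC −3.27 ± 0.19 SE, FDR = 4.63e-10), and *Dnmt3b*, a de novo methyltransferase, 1179.8, 1379, 907 and 1224 and 173.3, 201.2, 192.4 and 245.3 (log2FC −2.52 ± 0.13 SE, FDR = 1.47e-10). For these 3 genes every XGFP− library lay below every XGFP+ library.

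*Uhrf1*, which brings DNMT1 to replicated DNA, averaged 22403 ± 1054 (SD, n = 4) for ESCs, 12897 ± 540.3 for EpiLCs, 3368 ± 440.0 for XGFP+ and 1850.4 ± 236.4 for XGFP− PGCLCs. The last difference was a log2FC of −0.86 (FDR = 3.17e-07). *Dnmt1* (0.08, FDR = 0.189) and *Trim28* (−0.20, FDR = 0.0907) were not called between the PGCLC groups. Of the 15 genes, 4 were higher and 6 lower in EpiLCs than in ESCs (24.9% and 22.9% of all genes tested), 5 and 4 when XGFP+ PGCLCs were set against EpiLCs (27.8% and 29.5%), 4 and 6 when XGFP− PGCLCs were (29.9% and 31.9%), and 4 and 4 in XGFP+ PGCLCs against ESCs (25% and 24.9%).

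**Figure D4:**
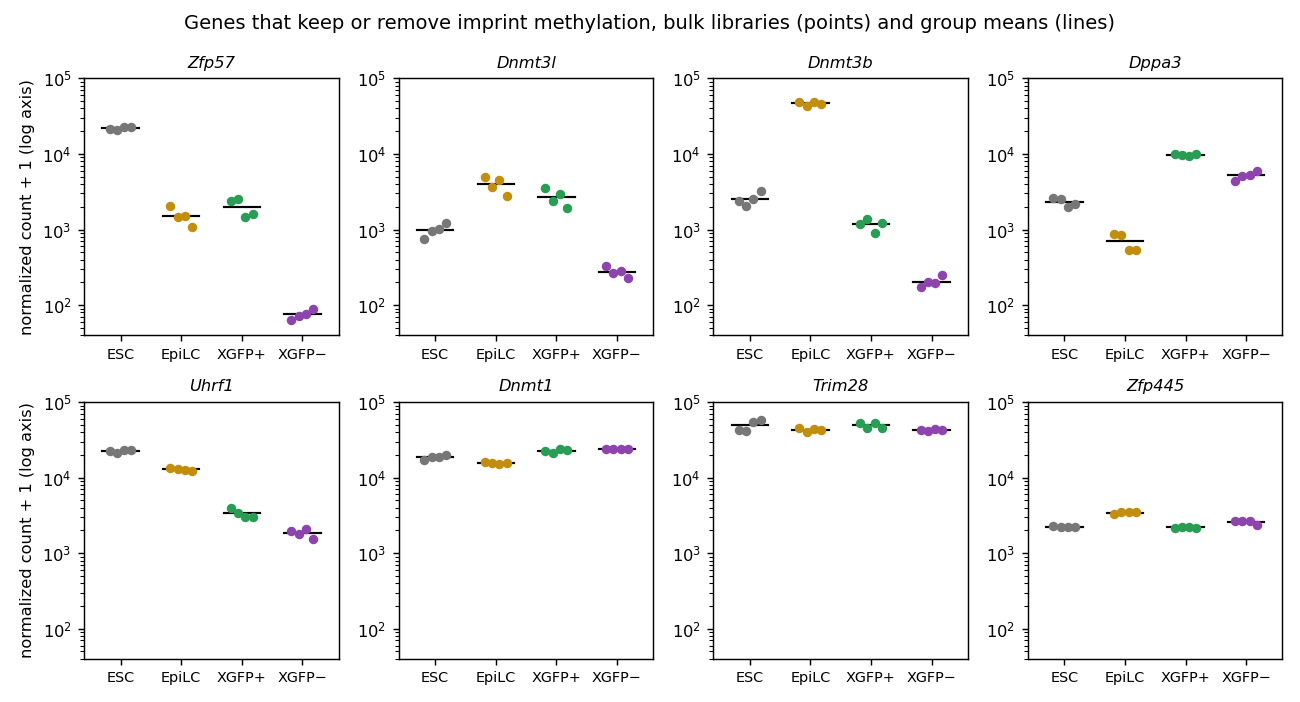
Normalized count + 1 (log axis, the same in all panels) in each bulk library for 8 genes that keep or remove imprint methylation, with points for libraries and lines for group means. *Zfp57* falls from at least 20828 in ESCs to at most 86.6 in XGFP− PGCLCs, whereas the group means of *Dnmt1* stay between 15747 and 23895.

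Single cells of rOvaries were sorted into 4 populations of XTomato+ cells: XGFP+ constitutive cells, made from XGFP+ PGCLCs, and XGFPhigh, XGFPintermediate and XGFPlow cells, made from XGFP− PGCLCs. After filters 462 cells were kept. 88 were XGFP+ constitutive, with a median of 354149 reads, and 374 came from XGFP− PGCLCs, with medians of 636623 (XGFPhigh, 125 cells), 645474 (XGFPintermediate) and 640902 reads (XGFPlow). Each population is 1 sample, so no test was made between them. Reads were summed over cells and scaled to the summed reads of the population (CPM), and 95% intervals are exact Poisson or binomial intervals that cover counting error only. XGFP+ constitutive cells all came from flowcell lane 2 and most others from lane 3, so the comparison with XGFP+ constitutive cells can be made within a lane only for the 14 XGFPhigh cells kept from lane 2.

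Some kept cells expressed little *Dazl*, the germ cell gene: a normalized *Dazl* level above 1 was found in 86.4% of XGFP+ constitutive, 94.4% of XGFPhigh, 90.6% of XGFPintermediate and 75.2% of XGFPlow cells. In the remaining 12, 7, 12 and 30 cells the 12 gonadal somatic markers summed to 352.8, 48.13, 6846 and 620.7 CPM, against 20.45, 12.14, 8.588 and 16.37 CPM in the cells with *Dazl*. Since the cells with little *Dazl* carried many reads of imprinted genes, levels of these genes are given for cells with *Dazl* and, for part of them, also for all kept cells.

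In all kept cells 20 of the imprinted genes exceeded a mean of 10 CPM. Between XGFPhigh and XGFP+ constitutive cells 0 were more than 2-fold higher and 5 more than 2-fold lower, where 1.42% and 1.62% of all 8716 genes were. Between XGFPintermediate and XGFPhigh cells 4 were higher and 6 lower (10.2% and 5.06% of all genes), and between XGFPlow and XGFPhigh cells 5 higher and 3 lower (8.88% and 4.07%). Among these genes *Igf2*, *Nnat* and *Peg10* passed the filter of 10 CPM only through the population where they are high. These were XGFPintermediate (51.8 CPM), XGFPlow (204.4) and XGFP+ constitutive cells (27.3). In cells with *Dazl* 17 genes exceeded 10 CPM. The counts became 0 and 1 (1.39% and 0.567% of 8463 genes), 1 and 7 (9.10% and 5.68%), and 2 and 6 (6.40% and 5.09%). The gene lower in XGFPhigh than in XGFP+ constitutive cells was *Phlda2*, which passed the filter only through the XGFP+ constitutive cells. In cells with *Dazl* the paternally expressed genes *Impact*, *Mest*, *Plagl1*, *Sgce*, *Slc38a4* and *Snrpn* were among the lower genes of both XGFPintermediate and XGFPlow cells, comparisons that share the XGFPhigh cells.

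Within cells with *Dazl* the summed level of the 21 paternally expressed genes was 1590 CPM in XGFP+ constitutive, 1352 in XGFPhigh, 638.5 in XGFPintermediate and 667.4 in XGFPlow cells. That of the 10 maternally expressed genes was 499.2, 426.5, 571.7 and 554.9 CPM. In all kept cells the paternal sums were 1756, 1354, 1028 and 1355 CPM, and the maternal sums 488.2, 428, 584.3 and 732.7 CPM. The paternal sum was thus lower in XGFPintermediate and XGFPlow than in XGFPhigh cells among cells with *Dazl*, and in all kept cells lower in XGFPintermediate cells only. Much of the difference among cells with *Dazl* lay in *Snrpn*, *Impact*, *Plagl1* and *Slc38a4*, given below. Not all paternally expressed genes fell: *Mcts2* and *Inpp5f* had ratios of XGFPintermediate to XGFPhigh of 1.87 and 1.73 there.

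*Plagl1* stood at 242.6 CPM in XGFP+ constitutive, 162.9 in XGFPhigh, 19.5 in XGFPintermediate and 25.1 in XGFPlow cells with *Dazl*. XGFPhigh was higher than XGFPintermediate by a factor of 8.36 (95% interval 7.92 to 8.83) and higher than XGFPlow by 6.50 (95% interval 6.17 to 6.86). In all kept cells the levels were 159.8 (157.1 to 162.5) in XGFPhigh, 68.3 (66.5 to 70.05) in XGFPintermediate and 39.2 (37.9 to 40.6) CPM in XGFPlow cells, and 74.4% of the *Plagl1* reads of XGFPintermediate lay in the 12 cells with little *Dazl*. Its median per cell with *Dazl* was 70.4 CPM in XGFPhigh and 0 in XGFPintermediate and XGFPlow cells.

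*Impact* changed little with the cells included, with 205.3, 50.3 and 61.2 CPM in XGFPhigh, XGFPintermediate and XGFPlow cells and 201.2, 49.9 and 58.6 in those with *Dazl*. *Slc38a4* had 157.7, 41.1 and 51.96 CPM in cells with *Dazl*. *Snrpn*, a splicing protein gene of the Prader-Willi region, had 343.9, 132.2 and 135.4. *Sgce* had 28.7, 7.86 and 7.99. For all 4 genes XGFPintermediate and XGFPlow cells lay closer to each other than to XGFPhigh cells and below both XGFPhigh and XGFP+ constitutive cells, which had 240.3, 175.4, 327.1 and 48.2 CPM.

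*Mest*, a hydrolase family gene, turned direction with the cells included. In all kept cells it was higher in XGFPintermediate (215.5 CPM) than in XGFPhigh (98.7), and in cells with *Dazl* lower (28.8 against 100.7). The 12 XGFPintermediate cells with little *Dazl* held 88.03% of its reads there, at 1841 CPM. *Igf2* (438 CPM), *Dlk1* (269.7) and *Grb10* (120.9) were also high in those cells, and at 7.33, 1.12 and 0.686 CPM in the XGFPintermediate cells with *Dazl*. The gonadal somatic markers moved with them, and their part in these levels was not tested.

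The 30 XGFPlow cells with little *Dazl* had other imprinted genes high. *Meg3* stood at 794 CPM, *Nnat* at 874, *Ndn* at 451 and *Nap1l5* at 107.3, against 3.12, 3.65, 91.7 and 0.779 CPM in the 91 XGFPlow cells with *Dazl*. Of all *Meg3* reads in XGFPlow cells 98.7% and of all *Nnat* reads 98.6% lay in these 30 cells. *Meg3* and *Nnat* were thus over 2-fold higher in XGFPlow than in XGFPhigh cells only with them included. In cells with *Dazl* *Meg3* was 11.5 CPM in XGFPhigh, 2.27 in XGFPintermediate and 3.12 in XGFPlow cells.

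*Cdkn1c* was over 2-fold higher in both XGFPintermediate and XGFPlow than in XGFPhigh cells, with and without the cells of little *Dazl*. In cells with *Dazl* it had 8.96 CPM in XGFP+ constitutive, 5.32 in XGFPhigh, 34.8 in XGFPintermediate and 20.8 in XGFPlow cells. The ratio to XGFPhigh was 6.55 (95% interval 5.90 to 7.28) for XGFPintermediate and 3.90 (95% interval 3.49 to 4.37) for XGFPlow cells. It passed the filter of 10 CPM through the populations where it is high. *Igf2*, which missed that filter in cells with *Dazl*, had ratios of 4.69 (95% interval 3.85 to 5.75) and 6.02 (95% interval 4.95 to 7.38) there, at 1.56, 7.33 and 9.42 CPM. *Mcts2*, a retrogene in an intron of *H13*, had 41.9, 78.2 and 84.3 CPM. *Phlda2* stood at 21.7 in XGFP+ constitutive, 10.1 in XGFPhigh, 1.07 in XGFPintermediate and 7.49 in XGFPlow cells, and passed the filter through the first of these.

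*Peg3* and *Peg10* were over 2-fold lower in XGFPhigh than in XGFP+ constitutive cells when all kept cells were summed. *Peg10* stayed lower in cells with *Dazl*, at 8.15 against 20.6 CPM, a factor of 2.53 (95% interval 2.26 to 2.84), but was then under the filter of 10 CPM. In lane 2 alone *Peg10* was at 4.49 in XGFPhigh and 27.3 CPM in XGFP+ constitutive cells, and *Peg3* at 71.1 and 252.2. *Peg3* was 252.2 (246.7 to 257.8) CPM in XGFP+ constitutive and 84.7 (82.8 to 86.7) in XGFPhigh cells, but 123.4 and 85.1 in cells with *Dazl*, as 57.1% of its XGFP+ constitutive reads lay in 12 cells. *Zfp57* summed to 9.002, 8.03, 0.734 and 6.13 CPM in the 4 populations and 52.4 in the 24 ESCs, and *Dnmt3l* to 130.4, 146.5, 4.19 and 9.18. For *Zfp57* and *Dnmt3l* the part of the cells with little *Dazl* is not given.

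**Figure D5:**
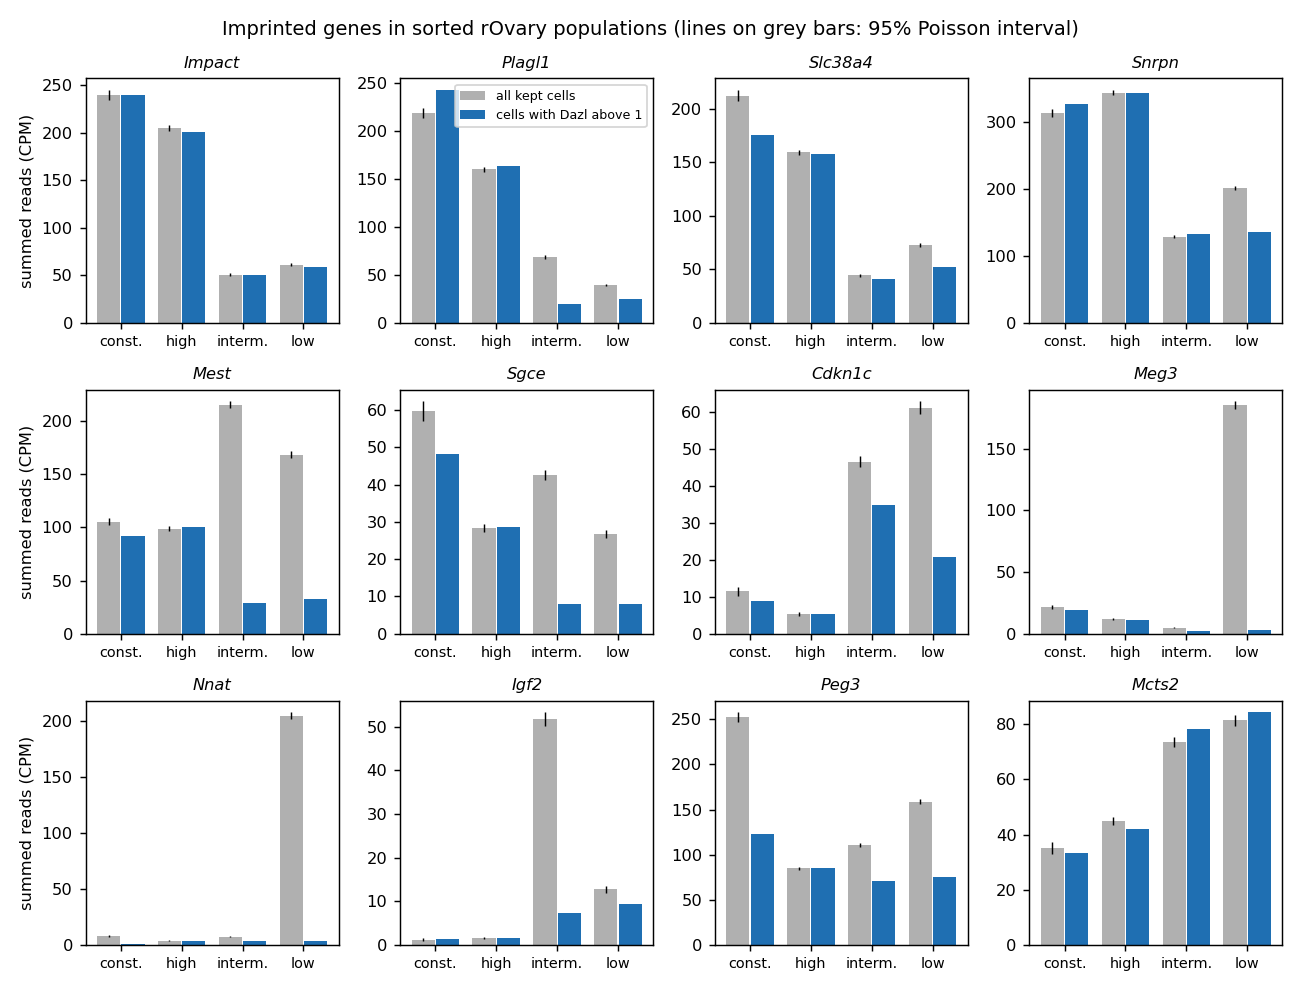
Summed reads (CPM, axes from 0) of 12 imprinted genes in XGFP+ constitutive (const.), XGFPhigh, XGFPintermediate (interm.) and XGFPlow rOvary cells, for all kept cells (grey, with 95% Poisson intervals) and for cells with *Dazl* above 1 (blue). *Impact*, *Plagl1*, *Slc38a4* and *Snrpn* are lower in XGFPintermediate and XGFPlow cells with *Dazl*, and the high XGFPlow bars of *Meg3* and *Nnat* are absent there.

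The 8 genes not analysed in bulk were *Rian*, *Mirg*, *Kcnq1*, *Rtl1*, *Snrpn*, *Snurf*, *Kcnq1ot1* and *Peg13*, and the 8 not analysed in single cells *H19*, *Rian*, *Mirg*, *Kcnq1*, *Airn*, *Snurf*, *Kcnq1ot1* and *Peg13*, as no row of the tables carries these names. All 32 genes in the bulk table had a mean above 10. The deposited table holds few genes below that, its lowest row mean being 9.59. Several genes share sequence with an overlapping gene (*Mcts2* with *H13*, *Zrsr1* with *Commd1*, *Nap1l5* with *Herc3*, *Mest* with *Copg2*, *Nnat* with *Blcap*), and their counts are uncertain to that extent.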

How the data were processed

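Bulk values are the normalized signal the authors deposited: stranded total RNA reads aligned with STAR to mm10 with strain SNPs masked, counted with HTSeq 0.6.1 and divided by DESeq2 1.16 size factors. The study's filter was a mean above 10, and the lowest row mean in the table is 9.59. Whole reads were recovered from the steps of each column (100% within 0.01 read). Single-cell values are read counts per gene deposited by the authors. 4 columns of other cells were not used. The allelic ratios, fractions of reads from 1 strain that the authors deposited, hold none of these genes and were not used.

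limma 3.58.1 (trend) was fitted to log2(normalized count + 1) of 16 libraries for 16281 genes with a mean above 10, with Benjamini-Hochberg adjustment over all of them and calls at FDR below 0.001. edgeR 4.0.16 and DESeq2 1.42.0 were run on recovered reads as alternatives. In simulated data for XGFP− against XGFP+ PGCLCs (16281 genes, 200 changed) limma recovered 73% of 2-fold and 92% of 4-fold changes. Single cells were kept with at least 4000 genes, 10000 reads and at most 5% mitochondrial reads, 1 cell a well, with no doublet caller. 552 wells had no repeated name, and 10 empty wells held at most 242 reads. *Dazl* above 1 is on a natural log scale. Calls there are over 2-fold among genes with a mean above 10 CPM.

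Same-numbered XGFP+ and XGFP− libraries deviated together (r = 0.253, 0.135, 0.20 and 0.307 across genes), so the number was added as a block in an alternative fit. All values given are from the fit without it. In the other pairs of groups r was −0.0105 to 0.16.

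The genes and all lists were chosen with earlier results of these data known, and parental classes are textbook assignments. Values in every library are given for genes called with an absolute log2FC above 1 between PGCLC groups and for the 5 largest called in each other bulk comparison. Other values in every library, and partner genes of a cluster, were added after values were seen. Positions are those of GENCODE vM21, sequences those of RefSeq GRCm38.p6.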

Additional observations from a re-analysis of the deposited data

Results flagged for a closer look

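For 32 genes in 4 groups of 4 libraries, the highest or lowest library stood apart from the other 3 in 6 cases by Dixon's test, which flags about 1 group in 20 by chance. *Zim1* was high in XGFP− PGCLC replicate 4 (42.3 normalized counts), *Airn* in XGFP− PGCLC replicate 3 (36.5), *Dlk1* in XGFP+ PGCLC replicate 2 (5.01) and *Zdbf2* in XGFP− PGCLC replicate 3 (4478). *Sgce* was low in XGFP+ PGCLC replicate 3 (55.5), as was *Inpp5f* in the same library (1801). Without XGFP− PGCLC replicate 3 *Airn* was not called between the PGCLC groups (limma, log2FC 1.61).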

How the results depend on the processing

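In bulk the counts of called genes moved by over 1.5 times in few settings. The single-cell counts, given in the next paragraph, moved in a larger share of theirs. For XGFP− against XGFP+ PGCLCs the 9 higher genes became 5 with an absolute log2FC above 1, and 5 without XGFP− PGCLC replicate 2 (*Magel2*, *Peg12*, *Inpp5f* and *Airn* were then not called), and the 2 lower genes became 7 at FDR below 0.05. The 13 genes lower in XGFP+ PGCLCs than in ESCs became 8 with an absolute log2FC above 1. Leaving out 1 library at a time gave 5 to 9 higher and 2 to 3 lower genes for XGFP− against XGFP+ PGCLCs, 16 to 19 and 5 for EpiLCs against ESCs, 5 and 17 to 21 for XGFP+ and 6 and 16 to 17 for XGFP− PGCLCs against EpiLCs, and 8 and 10 to 13 for XGFP+ PGCLCs against ESCs. Of 722 alternative values for the 27 named log2FC, 706 kept their direction and side of the threshold, 16 (*Magel2* and *Airn*, XGFP− against XGFP+ PGCLCs) lost the call and 0 reversed. The 722 leave out settings in which a gene was not tested. With a mean above 50 the named calls of *Dlk1*, *Phlda2*, *Nap1l5*, *Slc22a18* and *Airn* were lost in this way. Among calls outside the 27 named, *Inpp5f* (XGFP− against XGFP+ PGCLCs) was lost without any 1 of 7 libraries. *Grb10* and *Airn* (EpiLCs against ESCs) were lost without any 1 of 6, and *Mest* and *Slc38a4* (XGFP+ PGCLCs against ESCs) without any 1 of 8 and 4. With the replicate number as a block the counts were 9 and 2 for XGFP− against XGFP+ PGCLCs, 20 and 5, 5 and 21, 6 and 16, and 8 and 13 in the other comparisons, in the order above.

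In single cells, lane 2 alone gave 1 higher gene (XGFPhigh against XGFP+ constitutive), 3 lower (XGFPintermediate against XGFPhigh) and 6 lower (XGFPlow against XGFPhigh). A mean above 50 CPM gave 2 lower, 2 higher and 3 higher genes in the same order of comparisons, and the mean of per-cell CPM gave 9 higher genes in XGFPlow cells. Cells with *Dazl* gave 1 lower, 1 higher, 2 higher and 6 lower. After seeing the data, cells with *Dazl* were also split by lane: lane 3 gave 2 higher genes in XGFPintermediate, and 2 higher and 6 lower in XGFPlow cells, and lane 2 gave 1 higher and 2 lower in XGFPhigh, 2 higher in XGFPintermediate, and 2 higher and 7 lower in XGFPlow cells. Lane 3 gave no value for XGFP+ constitutive cells. Without genes imprinted in some tissues only, the maternal sums fell to 11740, 19110, 18660 and 31280 and the paternal sums of the PGCLC groups to 34540 and 66700. The causes were not tested. Depth limits genes of a few reads, such as *Dlk1* in PGCLCs, and 1 sample per sorted population limits the single-cell comparisons.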

Other observations

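A second list of 35 imprinted genes had 23 in the bulk table. Between XGFP− and XGFP+ PGCLCs 2 were higher, 6 lower and 15 not called by limma (11.3% and 12.5% of all genes tested were higher and lower). *Begain* had normalized counts of 27.2, 17.5, 28.7 and 13.4 (XGFP+) and 7.80, 3.05, 2.89 and 6.18 (XGFP−) (log2FC −1.95 ± 0.3 SE, FDR = 3.08e-05), *Dio3*, the thyroid hormone deiodinase gene of the *Dlk1* cluster, 46.2, 63.8, 50.7 and 75.2 and 18.2, 25.4, 30.8 and 13.4 (log2FC −1.43 ± 0.25 SE, FDR = 0.000143), and *Atp10a*, a phospholipid transporter gene next to *Ube3a*, 2349.7, 2009, 2702 and 2305 and 5316, 5721, 5859 and 5646 (log2FC 1.27 ± 0.21 SE, FDR = 6.95e-05). Of the 23 genes 8 were higher and 7 lower in EpiLCs than in ESCs (24.9% and 22.9% of all genes), 7 and 9 when XGFP+ PGCLCs were set against EpiLCs (27.8% and 29.5%), 8 and 12 when XGFP− PGCLCs were (29.9% and 31.9%), and 8 and 8 in XGFP+ PGCLCs against ESCs (25% and 24.9%). *Calcr*, the calcitonin receptor gene near *Peg10*, was at 1.12, 0.988, 0 and 3.39 in ESCs and 415, 361.9, 406 and 371.3 in EpiLCs.

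Within both PGCLC groups replicates 1 and 3 stood apart from replicates 2 and 4 in some imprinted genes. *Slc38a4* gave 5052, 6034, 4989.8 and 6025 (XGFP+) and 7435, 9067, 7320.2 and 9255 (XGFP−), higher in 2 and 4, and *Mest* 1977, 1396, 1834 and 1111 and 1438, 1151, 1507 and 1021, higher in 1 and 3. This was chosen after its values were seen. The study's methods describe different clones with technical replicates of each, and the numbers are not tied to clones, so the part of the clones in this split was not tested.

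*Gnas* was at 2384 to 4641 normalized counts in ESCs and EpiLCs in bulk, but at 0.0769 CPM in single ESCs, where *Commd1* had 215.0. Bulk PGCLCs averaged 1154 (XGFP+) and 1815 (XGFP−). In all kept rOvary cells *Gnas* had 0.636 CPM in XGFP+ constitutive, 0.532 in XGFPhigh, 1.24 in XGFPintermediate and 1.56 in XGFPlow cells. The low level was thus found throughout the single-cell data. The cause was not tested.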
